A study of Mus musculus with 8 samples.

Results

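The epidermal growth factor (EGF) family was followed in mouse embryonic fibroblasts that lack Cbx2, a chromodomain subunit of polycomb repressive complex 1. The genes were the rows of the deposited knockout-against-control table whose symbol is Areg, Ereg, Hbegf, Tgfa, Btc, Epgn, Nrg1, Egfr, Erbb2 or Erbb3. All 10 were found among the 17441 genes of the table, 7 ligands and 3 receptors. The family was selected on the fold changes and adjusted p-values of this comparison, so their fold changes and the authors' adjusted p-values are given as a description and support nothing further. Knockout cells were Cbx2-/- (targeted deletion) and control cells were wild type, from littermates. All cells were primary fibroblasts from embryonic day 18 embryos, collected at passage 2. RNA was sequenced from 2 libraries per genotype. The ATAC-seq libraries, 2 per genotype, were not used here. The labels do not state that the 2 libraries of 1 genotype stem from different embryos, so each spread below is between libraries and may be technical.

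EGF family ligands are made as membrane-anchored precursors that ADAM metalloproteases cut free. Released ligand binds ErbB receptors, which pair up, phosphorylate each other and switch on the Ras-ERK and PI3K-Akt cascades. In fibroblasts EGFR signalling is a classical mitogenic input, and ERK activity in turn raises transcription of several of the ligands. Neuregulins bind ErbB3 and ErbB4 rather than EGFR.

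The authors' deposited table gives 1 normalised read value per gene and genotype. The ratio of a gene's 2 values is the deposited fold change, which is pulled toward 0 where reads are few. The values sum to 18910077 in Cbx2-/- cells and 19428299 in wild-type cells. Cbx2 itself had a value of 29.0 in Cbx2-/- cells and 346.8 in wild-type cells in the authors' deposited table. The log2 fold change (knockout over wild type, as throughout) was -3.58, with an adjusted p of 2.55e-44 from the authors' DESeq2 comparison. Reads per library were recovered for genes with few reads, as described under the methods. Library pairs could be followed across genes but not tied to replicate numbers. For Cbx2 19 sets of whole reads matched, and 2 had the libraries of each genotype within 2-fold of each other. Of these 2, the 1 with a fall at least as deep as the deposited one was taken. Its reads were 27 and 25 in Cbx2-/- libraries, against 324 and 355 in wild-type libraries. Their closeness within a genotype and the depth of the fall are in part given by this choice. The fibroblast markers Col1a1 and Col3a1 were abundant in both genotypes (227630 and 54815 in Cbx2-/- cells, 264489 and 71346 in wild-type cells, in the authors' deposited table). Of 12 fibroblast markers 1 rose and 8 fell, where 3.48% of all genes rose and 4.30% fell, and 5.51% rose and 10.7% fell among genes with a mean value of 1000 or more. Thy1 rose and Dcn fell with the smallest adjusted p (log2 fold changes 1.27 and -1.06 in the authors' deposited table). Of 14 macrophage markers 7 rose, and the values of all 14 sum to 1635 in Cbx2-/- cells and 541.6 in wild-type cells in the authors' deposited table. Within these sums Lyz2 alone had 947.4 in Cbx2-/- cells and 147.8 in wild-type cells. Of 8 endothelial markers 2 rose, Esam (290.2 in Cbx2-/- cells, 35.6 in wild-type cells) and Cdh5 (323.8 and 61.6 in the same order), in the authors' deposited table. The other 6 were not called. Among them Pecam1 was near 0 (1.98 in Cbx2-/- cells, 2.02 in wild-type cells) and Kdr had 48.2 and 60.7 in the same order. Of 11 epithelial and keratinocyte markers 0 rose, 2 fell and 9 were not called. Among the 9, the defining epithelial markers Epcam and Krt5 were near 0. They had 1.97 and 2.22 in Cbx2-/- cells and 1.99 and 1.76 in wild-type cells in the authors' deposited table. The keratin genes Krt8 and Krt18, which simple epithelia share with some embryonic cells, fell to 7.48 and 75.6 in Cbx2-/- cells, against 98.0 and 260.4 in wild-type cells, in the authors' deposited table. Krt19, a keratin gene of the same list, was well above 0 and was not called. It had 178.4 in Cbx2-/- cells and 190.9 in wild-type cells (DESeq2 adjusted p 0.932) in the authors' deposited table. The part of these other cells in the family's values was not tested. Of 5 neuronal markers none was called by DESeq2 (1 at an unadjusted p under 0.05).

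Among the 10 family genes, the ligands Hbegf, Ereg and Areg rose in Cbx2-/- cells, the ligand Nrg1 fell, and no receptor passed the threshold (0 of 3 also at an unadjusted DESeq2 p under 0.05). Thus 4 of 10 passed an adjusted p of 0.05 by the authors' DESeq2 comparison (3 higher, 1 lower), against 7.78% of all genes. Of the 4049 genes with a mean value of 1000 or more, 16.2% were called. Because this comparison was known when the genes were chosen, nothing is read from that share. The median log2 fold change was 0.28 over the 7 ligands and 0.09 over the 3 receptors, against 0.0036 over all genes. A change of 2-fold or more, which the authors' own up and down calls require, was reached by 0 of the 10, against 1.00% of all genes called up and 0.682% called down.

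**Figure D1:**
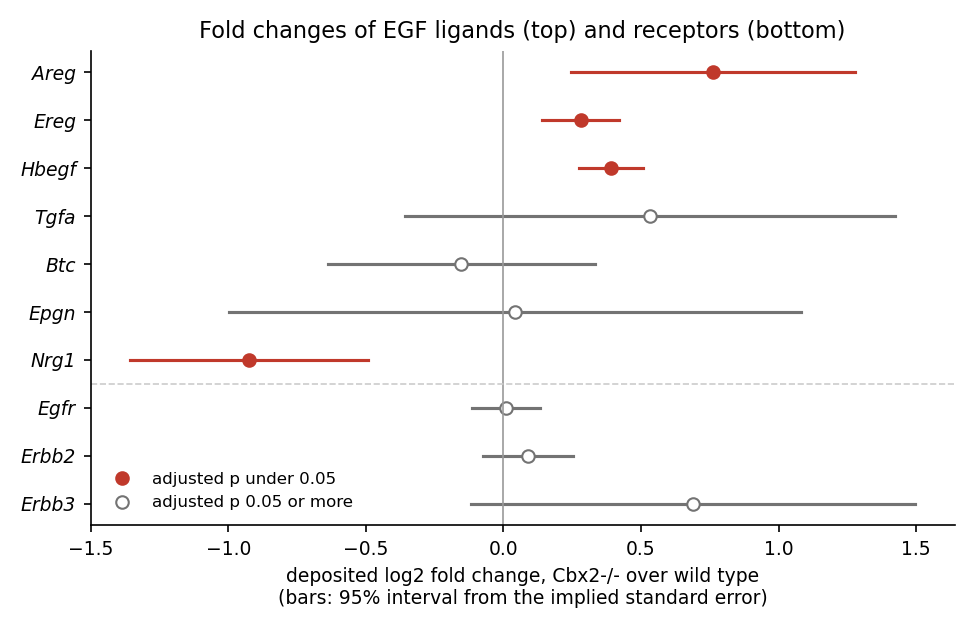
Deposited log2 fold change of each EGF family gene, Cbx2-/- over wild type, with a 95% interval from the standard error implied by the deposited p. Hbegf, Ereg and Areg lie above 0 and Nrg1 below it (filled points), while the interval of each of the 6 other genes spans 0.

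Hbegf, a heparin-binding ligand of EGFR and ErbB4 that stimulates fibroblast growth, had the smallest adjusted p of the family. Its gene (15200, on chromosome 18) had a value of 2992 in Cbx2-/- cells and 2282 in wild-type cells in the authors' deposited table. The log2 fold change was 0.39, or 1.31-fold, with an implied standard error of 0.059 and an adjusted p of 2.51e-09 by the authors' DESeq2 comparison. Epiregulin, the product of Ereg (13874), also binds EGFR and ErbB4. In the authors' deposited table Ereg had 2093 in Cbx2-/- cells and 1723 in wild-type cells, a log2 fold change of 0.28 (implied standard error 0.071, DESeq2 adjusted p 0.00171). Both genes have too many reads for values per library to be recovered, so whether their libraries overlap between genotypes is not known here. The change of Ereg was 1.21-fold.

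Areg encodes amphiregulin, a heparin-binding ligand of EGFR alone. Of 2 sets of whole reads that match its deposited values, the set whose libraries of a genotype lie within 2-fold of each other was taken. Those reads, scaled by library size, were 142.2 and 122.2 in the Cbx2-/- libraries, against 89.4 and 60.9 in the wild-type libraries. Both knockout libraries were above both wild-type libraries, and the wild-type pair was the more spread. Of the 1000 genes with a mean from 20 to 50, 35.7% had both knockout libraries above both wild-type libraries and 22.2% had both below. Areg has a higher mean, at which this share was not computed. In the authors' deposited table Areg (11839) had 130.4 in Cbx2-/- cells and 77.0 in wild-type cells, with a log2 fold change of 0.76, an implied standard error of 0.26 and a DESeq2 adjusted p of 0.0496. That value sat just under the threshold. The call was lost when fold changes were recentred on the median of all genes (adjusted p = 0.0509) and when the standard error was widened by 20% (adjusted p = 0.206), on the authors' deposited fold change and p. Without 1 library, the fold change of the reads ranged from 0.56 to 1.11 on the log2 scale.

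Transforming growth factor alpha, encoded by Tgfa (21802, chromosome 6 from 86195038 to 86275744), is another EGFR ligand and was scarce in these cells. Its scaled reads were 24.2 and 27.15 in the Cbx2-/- libraries, against 17.9 and 13.9 in the wild-type libraries. Both knockout libraries were above both wild-type libraries, an order that 35.7% of genes at this level shared. Its log2 fold change of 0.53 in the authors' deposited table had an adjusted p of 0.813.

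Betacellulin, from Btc (12223), binds EGFR and ErbB4. Its scaled reads, from the 1 of 5 matching sets with libraries within 2-fold, were 91.9 and 121.2 in the Cbx2-/- libraries, against 127.1 and 111.2 in the wild-type libraries, and the genotypes overlapped. The log2 fold change in the authors' deposited table was -0.15, with a 95% interval from -0.64 to 0.33 and a DESeq2 adjusted p of 0.931. Epgn (71920), which encodes epigen, a low-affinity EGFR ligand, was close to absent. It had 4 and 4 recovered reads in the Cbx2-/- libraries, against 4 and 3 in the wild-type libraries, and a difference was not detectable at this depth.

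Nrg1 was the ligand that fell. It encodes neuregulin 1, the ErbB3 and ErbB4 ligand known for its part in Schwann cell and heart development. Of 10 matching sets of whole reads, 1 had the libraries of each genotype within 2-fold of each other and was taken. Its scaled reads were 96.7 and 93.1 in the Cbx2-/- libraries, against 175.8 and 195.6 in the wild-type libraries. The groups did not overlap in this set, and among genes with a mean from 20 to 50, lower than that of Nrg1, 22.2% had both knockout libraries below both wild-type libraries. How close the libraries of a genotype lie is in part given by the choice of the set. In the authors' deposited table Nrg1 (211323, chromosome 8 from 31807452 to 32891609 in GRCm38) had 96.8 in Cbx2-/- cells and 183.8 in wild-type cells. The log2 fold change was -0.93, with an implied standard error of 0.22 and an adjusted p of 6.88e-04 by the authors' DESeq2 comparison. Nrg1 has many isoforms, and these gene-level values do not separate them.

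**Figure D2:**
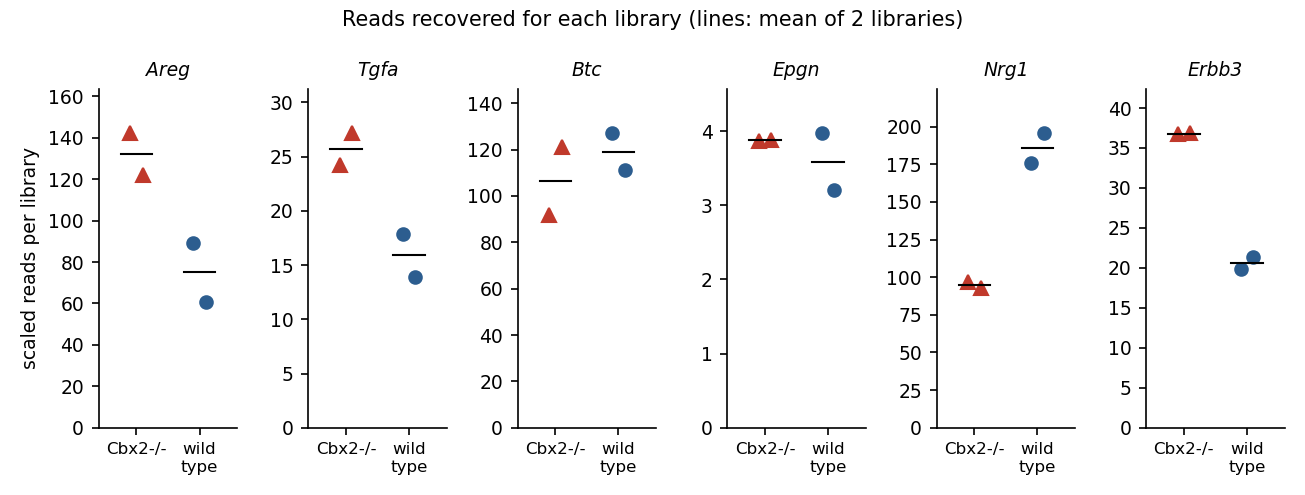
Scaled reads recovered for each library of the 6 family genes for which this was possible, Cbx2-/- (triangles) and wild type (circles), on linear axes from 0. Areg, Tgfa and Erbb3 are higher in both Cbx2-/- libraries, Nrg1 is lower in both, and Btc and Epgn overlap. Of all genes with a mean from 20 to 50, 35.7% were higher in both Cbx2-/- libraries and 22.2% lower in both. Areg and Nrg1 have means above that range.

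The receptors were measured at close to the same level in both genotypes or with too few reads to tell. Egfr (13649, chromosome 11 from 16752203 to 16913907), the receptor for most of these ligands, had 3016 in Cbx2-/- cells and 2997 in wild-type cells in the authors' deposited table. The log2 fold change of Egfr was 0.0090 (implied standard error 0.063, DESeq2 adjusted p 0.995), with a 95% interval from -0.11 to 0.13 in the authors' deposited values. Erbb2 (13866, chromosome 11 from 98412484 to 98437716), a receptor with no known ligand that serves as partner to the others, had 1262 in Cbx2-/- cells and 1187 in wild-type cells in the authors' deposited table. For Erbb2 the log2 fold change of 0.09 had a 95% interval from -0.08 to 0.25 (DESeq2 adjusted p 0.877).

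Erbb3 (13867, chromosome 10 from 128567523 to 128589635) encodes a neuregulin receptor with little kinase activity of its own. Scaled reads were 36.8 and 36.9 in the Cbx2-/- libraries, against 19.9 and 21.4 in the wild-type libraries. The libraries did not overlap, but 35.7% of genes with a mean from 20 to 50 showed the same order. The log2 fold change of Erbb3 was 0.69 in the authors' deposited table, with a 95% interval from -0.12 to 1.498 and a DESeq2 adjusted p of 0.504, so it was not called. Erbb3 is also known as a gene of Schwann cells and their neural crest precursors, and markers of those cells were present. Sox10, the defining transcription factor of that lineage, had scaled reads of 67.7 and 62.1 in the Cbx2-/- libraries, against 39.7 and 43.8 in the wild-type libraries. Those of Cdh19, a cadherin gene of Schwann cell precursors, were 37.7 and 38.8 in the Cbx2-/- libraries, against 16.9 and 21.4 in the wild-type libraries. These genes too lay higher in both knockout libraries, the order that 35.7% of genes with a mean from 20 to 50 showed. Sox10 has a mean of 53.3, above that range, at which the share was not computed. None of Sox10, Cdh19 and Foxd3 passed the threshold (DESeq2 adjusted p 0.468, 0.329 and 0.786 in the authors' deposited table).

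Of 6 Schwann cell and melanocyte markers, 1 rose (Ngfr) and 1 fell (S100b), and their summed values were 723.3 in Cbx2-/- cells and 712.9 in wild-type cells in the authors' deposited table. Ngfr had 222.4 in Cbx2-/- cells and 140.9 in wild-type cells, and S100b had 372.4 in Cbx2-/- cells and 488.9 in wild-type cells, in the authors' deposited table. The receptor gene Gfra3 was near 0, at 0.239 in Cbx2-/- cells and 0.258 in wild-type cells in the authors' deposited table. In bulk RNA, a change in the number of cells of a type and a change in RNA per cell cannot be told apart. The part of such cells in the values of Erbb3 and Nrg1 was not tested.

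**Figure D3:**
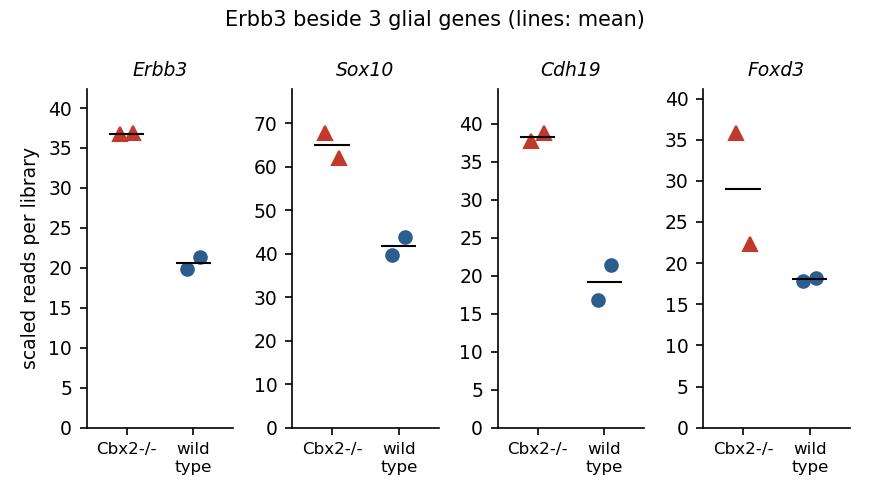
Scaled reads per library of Erbb3 and of 3 of the 6 Schwann cell and melanocyte markers, Cbx2-/- (triangles) and wild type (circles), on linear axes from 0. The 4 genes plotted are higher in both Cbx2-/- libraries, while S100b, not plotted, fell and Gfra3 was near 0. Of all genes with a mean from 20 to 50, 35.7% were higher in both Cbx2-/- libraries, and the mean of Sox10 is above that range.

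Levels were compared between genes per kilobase of the length listed in the table. Hbegf was the most abundant family transcript, with 1251 normalised reads per kilobase in Cbx2-/- cells and 954 in wild-type cells, from the authors' deposited table. Egfr followed with 548 in Cbx2-/- cells and 545 in wild-type cells, then Ereg with 506 and 417, and Erbb2 with 252 and 237, in the same unit and order. The spread between libraries is not known for these 4 genes. Hbegf and Ereg together made up 89.9% of the summed ligand level per kilobase in Cbx2-/- cells and 87.4% in wild-type cells, from the authors' deposited table. Egfr made up 67.7% of the receptor level in Cbx2-/- cells and 69.2% in wild-type cells.

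Below these the order of Areg and Nrg1 differed between genotypes. In Cbx2-/- libraries Areg had 117.0 and 100.6 scaled reads per kilobase and Nrg1 46.0 and 44.3. In wild-type libraries Areg had 73.6 and 50.2 and Nrg1 83.6 and 93.0. In these sets of reads Areg was above Nrg1 in knockout and below it in wild type, without overlap, which the choice of sets with libraries within 2-fold fixes in part. The order also rests on 1 listed length per gene (1215 bases for Areg, 2103 for Nrg1), and isoforms of Nrg1 were not separated. Btc came next, with 31.95 and 42.1 in Cbx2-/- libraries and 44.2 and 38.7 in wild-type libraries. It lay under Nrg1 in each genotype, by little in the knockout. Erbb3 (9.14 and 9.17 in Cbx2-/- libraries, 4.94 and 5.32 in wild-type libraries) was above Tgfa (5.32 and 5.97 in Cbx2-/- libraries, 3.93 and 3.06 in wild-type libraries), and Epgn was last with 2.27 and 2.28 in Cbx2-/- libraries and 2.33 and 1.88 in wild-type libraries.

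**Figure D4:**
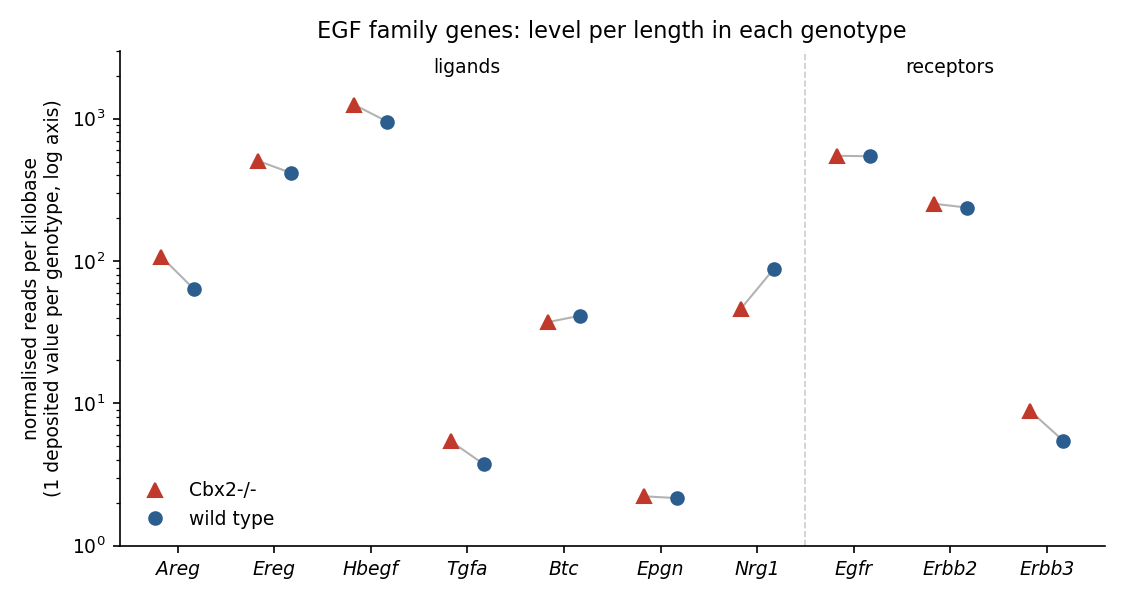
Level of each EGF family gene in normalised reads per kilobase of listed length, on a log axis, with 1 deposited value for each genotype (triangles Cbx2-/-, circles wild type). Hbegf, Egfr, Ereg and Erbb2 are the 4 highest, and Areg and Nrg1 change places between the genotypes.

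Epgn, Ereg, Areg and Btc lie in this order in 1 cluster on chromosome 5, within 375 kb (91027517 to 91402994 in GRCm38, from the RefSeq annotation). Ereg starts 39.4 kb after Epgn ends, Areg 46.0 kb after Ereg, and Btc 209 kb after Areg. The adjacent pair Ereg and Areg rose, whereas the outer genes Epgn and Btc were not called. Between Areg and Btc the long non-coding RNA gene Gm19619 had 2.94 in Cbx2-/- cells and 2.52 in wild-type cells in the authors' deposited table (log2 fold change 0.23, DESeq2 adjusted p 0.947).

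The 250 bases before the annotated start are shown for 3 genes of the cluster, of which Areg was called and Epgn and Btc were not. Ereg, which lies between Epgn and Areg and was also called, is not shown, so called and uncalled genes of the cluster cannot be compared. Sequences are from RefSeq (GRCm38.p6), 5′ to 3′ on the gene's strand, with matches to the cAMP response element TGACGTCA and to the TATA motif TATAAA in capitals. They lie at chr5:91139349-91139598 (plus strand) for Areg, chr5:91027267-91027516 (plus strand) for Epgn and chr5:91402995-91403244 (minus strand) for Btc.
Areg: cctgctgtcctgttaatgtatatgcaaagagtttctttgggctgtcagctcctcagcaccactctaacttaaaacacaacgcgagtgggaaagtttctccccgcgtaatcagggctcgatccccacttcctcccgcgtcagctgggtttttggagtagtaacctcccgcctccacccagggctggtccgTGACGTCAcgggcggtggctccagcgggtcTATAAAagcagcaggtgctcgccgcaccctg
Epgn: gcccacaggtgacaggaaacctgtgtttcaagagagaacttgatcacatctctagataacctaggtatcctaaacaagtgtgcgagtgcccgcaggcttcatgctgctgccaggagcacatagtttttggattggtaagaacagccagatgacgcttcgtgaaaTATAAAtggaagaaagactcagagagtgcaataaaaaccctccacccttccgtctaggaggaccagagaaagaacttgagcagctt
Btc: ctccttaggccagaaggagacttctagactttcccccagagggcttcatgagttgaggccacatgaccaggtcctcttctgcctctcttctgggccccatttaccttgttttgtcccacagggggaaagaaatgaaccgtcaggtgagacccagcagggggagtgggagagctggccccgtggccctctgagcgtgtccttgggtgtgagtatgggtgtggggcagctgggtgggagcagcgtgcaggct
Both strands were searched. The Areg window held 1 TGACGTCA, beginning at position -61 from the start, and 1 TATAAA, at -31. Epgn held 1 TATAAA at -86 and no TGACGTCA, and neither set of letters was in the Btc window. Of 32851 promoter windows of this length, 1.55% held TGACGTCA and 12.4% held TATAAA. The AP-1 motif TGANTCA, present in 6.75% of all windows, was in none of the 6 family promoters examined. Besides these 3 they are those of Tgfa, Egfr and Erbb2. The Tgfa window (chr6:86194972-86195221, plus strand) reaches past the gene start given above (86195038), so it is not wholly upstream of that start. Ereg, Hbegf, Nrg1 and Erbb3 were not among the promoters examined, so their motifs are not known here. Areg had 15 CpG dinucleotides in the window, Epgn 5 and Btc 4, against a median of 6 over all windows. A match describes letters in the window and does not show that a factor binds.

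Genes of the rest of the pathway were counted by lists chosen with earlier results of these data known, all at an adjusted p under 0.05 by the authors' DESeq2 comparison. Over all genes 3.48% rose and 4.30% fell at that threshold, and among those with a mean value of 1000 or more 5.51% rose and 10.7% fell. The other family genes Egf, Nrg2 and Nrg4 were scarce. They had 14 and 9, 1 and 4, and 6 and 2 recovered reads in the Cbx2-/- libraries, against 4 and 12, 2 and 3, and 8 and 3 in the wild-type libraries, and none passed (also none at an unadjusted p of 0.05). Values of Nrg3 and Erbb4 are not analysed here.

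Of 14 genes for ligand shedding and processing 2 rose and 3 fell, with a median log2 fold change of -0.024. Adam17 and Adam10, the main sheddases of EGFR ligands, were not called, and their log2 fold changes were -0.028 and -0.019 (implied standard errors 0.086 and 0.061, from the authors' deposited table). Timp3, an inhibitor of metalloproteases that include Adam17, rose to 26344 in Cbx2-/- cells, against 16745 in wild-type cells, in the authors' deposited table (log2 fold change 0.65, DESeq2 adjusted p 1.68e-70). Adam8, a metalloprotease that leukocytes also express, had 435.8 in Cbx2-/- cells and 139.7 in wild-type cells in the authors' deposited table (1.64, adjusted p 4.43e-20). Of the 14 macrophage markers 7 rose and 7 were not called, and 12 of the 14 had a log2 fold change above 0. Lyz2, which rose most, had 947.4 in Cbx2-/- cells and 147.8 in wild-type cells in the authors' deposited table. Ctss, which also rose, had 82.4 and 15.7 in the same order. C1qb and Aif1, both with few reads, lay lower in knockout and were not called (log2 fold changes -0.57 and -0.38 in the authors' deposited table). Csf1r, the macrophage growth factor receptor gene, did not pass (257.0 in Cbx2-/- cells, 244.6 in wild-type cells, DESeq2 adjusted p 0.955 in the authors' deposited table). The part of macrophages in the values of Adam8 and of the ligands, which they can also make, was not tested. Adam12 (-0.29), Adam9 (-0.15) and the proprotein convertase gene Furin (-0.15) fell (log2 fold changes from the authors' deposited table).

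Of 9 surface cofactor genes, some of which help present heparin-binding ligands, 2 rose and 2 fell. Gpc1, a glypican, and Sdc4, a syndecan, rose (log2 fold changes 0.26 and 0.18), and the hyaluronan receptor gene Cd44 and the syndecan gene Sdc3 fell (-0.24 and -0.24), in the authors' deposited table. Among 18 genes of the adaptors and the Ras-ERK cascade 1 rose and 2 fell, with a median log2 fold change of 0.011. Rasa1, which turns Ras off, and the kinase gene Map2k1 fell (-0.25 and -0.20), and Mapk3, which encodes ERK1, rose (0.19), in the authors' deposited table. None of 13 genes of the PI3K, Akt and phospholipase C branch passed, whereas 2 (Pik3cb and Pdpk1, with log2 fold changes 0.37 and -0.21) had an unadjusted DESeq2 p under 0.05 in the authors' deposited table.

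Negative regulators and receptor sorting genes had 1 rise and 3 falls among 23, with a median log2 fold change of 0.015. The Sprouty genes Spry1 and Spry2, feedback inhibitors of receptor tyrosine kinase signalling, fell, whereas Spry3 and Spry4 were not called (log2 fold changes 0.23 and 0.044 in the authors' deposited table). Spry1 had 477.4 in Cbx2-/- cells and 730.1 in wild-type cells, and Spry2 had 842.2 in Cbx2-/- cells and 1078 in wild-type cells, in the authors' deposited table (log2 fold changes -0.61 and -0.36). Socs5, which promotes EGFR turnover, fell too (-0.35), whereas Sh3kbp1, an adaptor in receptor endocytosis, rose (0.22), in the authors' deposited table. Errfi1 (-0.13, DESeq2 adjusted p 0.0601) and Cblb (-0.23, adjusted p 0.0520), which restrain or ubiquitinate EGFR, were just outside the threshold in the authors' deposited table.

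Of 23 genes that ERK signalling is known to induce 10 rose, 1 fell and 12 were not called, with a median log2 fold change of 0.17 (all genes 0.0036). Of the 14 with a mean value of 1000 or more, 7 rose and none fell by DESeq2. Of all genes at that level 5.51% rose and 10.7% fell. At an unadjusted DESeq2 p under 0.05, 0 of the 14 were lower. The share of all genes at an unadjusted p was not computed, for this or the other unadjusted counts. The phosphatase genes Dusp5, Dusp4 and Dusp6, which inactivate ERK, rose, and Dusp5 most. Dusp5 had 978.3 in Cbx2-/- cells and 535.7 in wild-type cells in the authors' deposited table (log2 fold change 0.87, implied standard error 0.10, DESeq2 adjusted p 9.15e-16). In the authors' deposited table Dusp4 stood at 0.35 and Dusp6 at 0.22 on the log2 fold change scale. The receptor genes Plaur (0.34), Epha2 (0.42) and Epha4 (0.42) rose in the authors' deposited table. So did the early response genes Egr1 (0.19), Egr3 (0.45) and Ier3 (0.26), and the cyclin gene Ccnd1 (0.17). Etv1, an Ets factor, fell (-0.71 in the authors' deposited table). The 12 genes not called had log2 fold changes from -0.081 (Myc) to 0.50 (Fosb, DESeq2 adjusted p 0.0863) in the authors' deposited table. Among them Fos, Fosl1, Myc, Etv4, Etv5 and Ptgs2 lay from -0.081 to 0.12. Since no set test was made, nothing is called particular to this list.

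**Figure D5:**
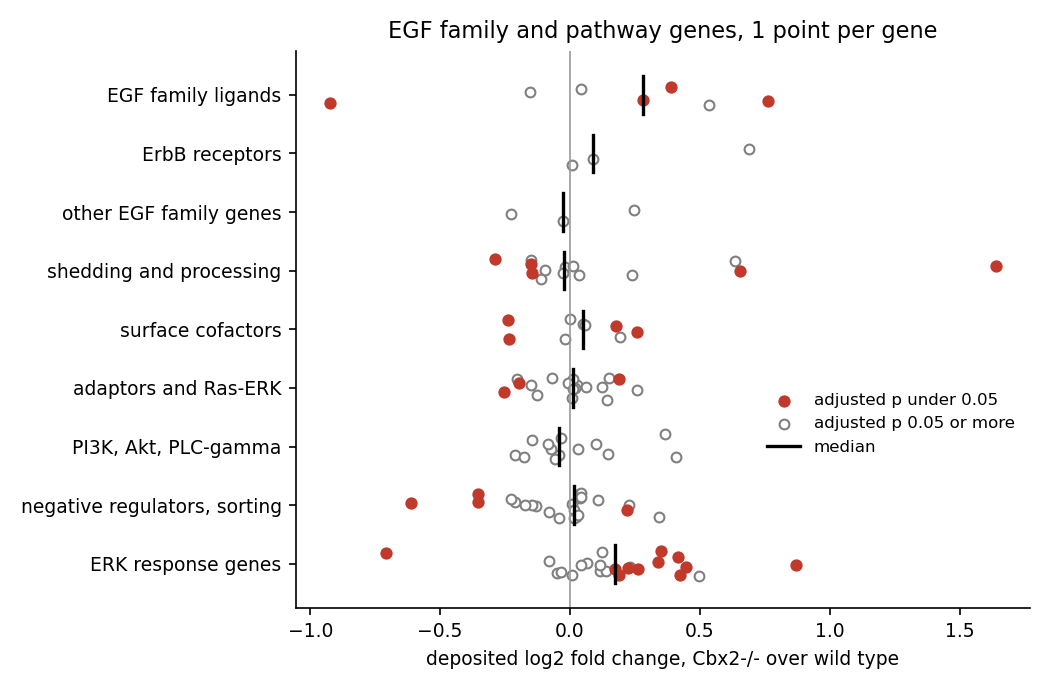
Deposited log2 fold change of each gene, Cbx2-/- over wild type, for the EGF family and its pathway lists. Filled points have an adjusted p under 0.05 and black bars mark medians, of which those of the ligands (0.28) and of the ERK response genes (0.17) lie farthest from 0.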

How the data were processed

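RNA was sequenced on the DNBseq platform, per the labels' protocols, from 4 libraries, 2 Cbx2-/- and 2 wild type, with about 4.62 Gb and 200000 cells for each library. The tools listed in the submitters' processing notes are RSEM, Bowtie2, HISAT2 and DESeq2, without versions, and the build is mm10. The authors deposited 1 table of their comparison, with a normalised read signal per gene and genotype, a log2 fold change, a p-value and an adjusted p-value. It holds no values per library, so the authors' DESeq2 comparison stands in for a count test of the libraries. The use of strand in counting is not given in the sources used here.

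From the deposited table, standard errors were computed as the size of the log2 fold change divided by the normal quantile of its p-value, and levels were divided by the listed length. The mean of a gene's 2 deposited values is the mean of its 4 scaled counts, so whole reads per library were sought that give this mean, with size factors of 1.03 and 1.03 (Cbx2-/-) and 1.01 and 0.935 (wild type). All 6126 genes with a mean under 50 had exactly 1 such set. For list genes with higher means, the set with libraries of a genotype within 2-fold was taken if only 1 qualified, a choice made after seeing the data. Of 578 genes with a mean from 30 to 50, 97.4% have libraries that close. For Cbx2 2 sets qualified, and the 1 with a fall at least as deep as the deposited one was taken. Fold changes of reads are on the log2(value + 0.5) scale. With 2 libraries against 2 an exact permutation test cannot go below p = 0.333 (two-sided), so none is given. The recovery of reads was tried on simulated data in which the libraries of a genotype lay close together. That setting cannot check the 2-fold choice for libraries that lie farther apart. The added rule for Cbx2 was not simulated.

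The family genes and the gene lists were chosen with earlier results of these data known. Some list genes are not reported here and were left out of the counts. Named were Cbx2, all family genes, list genes with an adjusted p under 0.05, up to 2 markers a list, neighbours of called family genes, and the 3 genes nearest in level to the family gene with the smallest adjusted p. Members named as not called, such as Adam17, Csf1r and Sox10, were added after their values were seen. Promoters and neighbours are from RefSeq (GRCm38.p6). Python 3.11.15, pandas 2.3.3, numpy 2.4.6 and scipy 1.17.1 were used. Alternatives were a stricter threshold, the authors' 2-fold call, adjustment over genes with a mean of 10 or more, recentring, wider standard errors, another pseudocount and leaving out a library.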

Additional observations from a re-analysis of the deposited data

How the results depend on the processing

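The 4 calls in the family (Hbegf, Ereg, Areg, Nrg1) became 3 at an adjusted p of 0.01, 3 after recentring on the median of all genes, 3 with standard errors widened by 20%, 4 after adjustment over genes with a mean of 10 or more, and 0 under the authors' 2-fold call. Areg was the call lost in each case with 3, at a log2 fold change of 0.76 both recentred (adjusted p = 0.0509) and with the wider error (adjusted p = 0.206), while adjustment over genes with a mean of 10 or more gave 0.0373. Hbegf, Ereg and Nrg1 kept their direction and passed 0.05 under recentring, wider errors and the adjustment over fewer genes. Counts for shedding and processing genes moved to 3, against 5, at an adjusted p of 0.01 and with wider errors (3 in both). Those for the Ras-ERK cascade moved to 1, against 3, in both. The surface cofactor genes moved to 3, against 4, in both. The ERK response genes moved to 8, against 11, at an adjusted p of 0.01 and to 7 with wider errors. The negative regulators moved to 6, against 4, when adjusted over fewer genes or recentred, through Cblb and Errfi1. Recovered reads gave Erbb3 a log2 fold change of 0.82 (pseudocount 0.5) or 0.81 (pseudocount 1), against 0.69 as deposited. Leaving out 1 library gave log2 fold changes from 0.56 to 1.11 for Areg, from 0.51 to 0.86 for Tgfa, from -0.37 to 0.02 for Btc, from -0.03 to 0.24 for Epgn, from -1.04 to -0.89 for Nrg1 and from 0.77 to 0.87 for Erbb3. Btc and Epgn thus changed sign without 1 library. Ereg, Hbegf, Egfr and Erbb2 have no values per library, and the count of calls could not be repeated without a library. No paired analysis was possible because the deposited table has no columns for numbered replicates and the recovered libraries cannot be tied to replicate numbers.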

Other observations

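The Gene Ontology term for the epidermal growth factor receptor signalling pathway, as annotated in the authors' deposited table, holds 35 genes with values, 6 of them in the family described above. This term was chosen after its values were seen. It had 4 rises and 3 falls at an adjusted p under 0.05 by the authors' DESeq2 comparison, where 3.48% of all genes rose and 4.30% fell, with a median log2 fold change of -0.0048. Of the 29 genes outside the family 1 rose, Efemp1, which encodes fibulin-3, an extracellular matrix glycoprotein reported to bind EGFR. Efemp1 had 903.3 in Cbx2-/- cells and 319.1 in wild-type cells in the authors' deposited table, a log2 fold change of 1.501 (implied standard error 0.12, DESeq2 adjusted p 1.47e-35). That is larger than the fold change of any family gene in the same table. The falls were Socs5, the kinase-like gene Styk1 (107.8 in Cbx2-/- cells, 168.1 in wild-type cells) and the scaffold gene Iqgap1 (log2 fold change -0.13), in the authors' deposited table.

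The genes nearest to Hbegf by the distance of their 2 log2 group values were Slco2a1, a prostaglandin transporter gene, Cd109, which encodes a membrane-anchored TGF-beta co-receptor, and the tetraspanin gene Tspan3. They had 2962, 3005 and 3052 in Cbx2-/- cells and 2332, 2357 and 2362 in wild-type cells in the authors' deposited table, at distances of 0.034, 0.047 and 0.057 over the 2 genotypes.

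The genes next to Hbegf that have values were not called by DESeq2 in the authors' deposited table. Pfdn1, a prefoldin subunit gene, had 920.6 in Cbx2-/- cells and 854.1 in wild-type cells (log2 fold change 0.11, DESeq2 adjusted p 0.833) in the authors' deposited table. Cystm1 had 23.7 in Cbx2-/- cells and 14.4 in wild-type cells (0.72, adjusted p 0.585), and Slc4a9, an anion exchanger gene, had 1.04 and 0.915 in the same order, in the authors' deposited table.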
